A study of Mus musculus with 2 samples.

Results

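Integrin and laminin genes were described in the stomach of the mouse embryo at 14.5 days of gestation. The genes were taken by symbol from the protein-coding genes of the deposited gene table: 18 integrin alpha chains, 8 integrin beta chains and 11 laminin chains. These 37 genes stand among 21474 protein-coding genes and 43346 Ensembl genes in all. The study holds 2 total RNA libraries of strain B6NCrl, biological replicates 1 and 2 of 1 group, each made from the stomach of 1 pup and 10 ng of starting RNA. The labels call the sex of each sample mixed, although 1 pup was used for each, and they give no treatment, mutation or second condition. Differences between the libraries are therefore given without a test.

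Integrins are receptors of an alpha and a beta chain that span the cell membrane. They bind the extracellular matrix or other cells outside and the actin or intermediate filament cytoskeleton inside. Laminins are secreted trimers of an alpha, a beta and a gamma chain. They are a main building material of basement membranes, the sheets under epithelia and around muscle, vessels and nerves. In the gut, laminins lie between the epithelium and the mesenchyme and are read by integrins on both sides.

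The deposited expected counts sum to 25072242 (replicate 1) and 25599910 (replicate 2). Integrin and laminin genes took 63668 and 59447 of them, or 0.269% and 0.249% of the counts on genes. The libraries were not copies of each other, since a chi-square over genes at a mean of at least 10 counts reached 153110 on 17509 degrees of freedom. Values below are TPM, a level per transcript that divides by transcript length so that genes can be compared. All 9 markers of stomach epithelium, 7 of mesenchyme, 6 of smooth muscle and 7 of endothelium had TPM of 1 or more in both libraries. So did 61.8% of all protein-coding genes and all 4 liver markers, so passing this threshold does not identify the tissue. Markers of exocrine pancreas summed to 674 TPM in replicate 1 and 43.3 in replicate 2, and all 6 that averaged at least 100 counts were over 2-fold higher in replicate 1. In bulk tissue, fewer cells of a type and less RNA per cell cannot be told apart.

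A gene was called detected at a TPM of 1 or more in both libraries. By this rule 30 of the 37 genes were detected, against 61.8% of all protein-coding genes. All 8 beta chains were detected, with 12 of the 18 alpha chains and 10 of the 11 laminin chains. The 7 others were Itga10, Lamc3 and 5 alpha chains of leukocytes. The median over detected genes was 11.1 TPM for integrins and laminins and 18.4 TPM for all protein-coding genes. In 16 of the 37 genes TPM exceeded 10 in both libraries, against 40.1% of protein-coding genes.

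**Figure D1:**
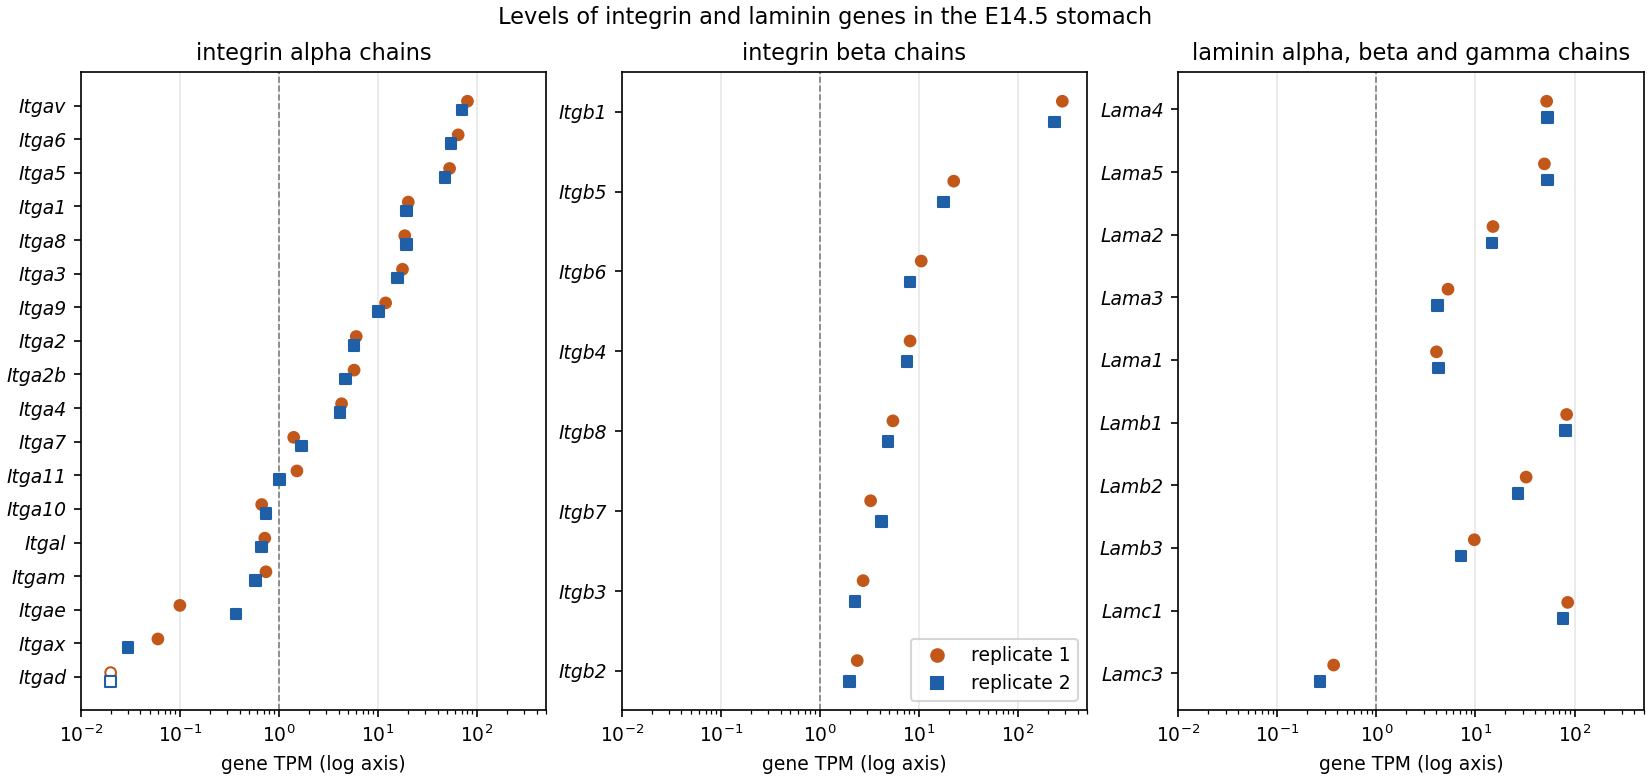
Gene TPM (log axis) of integrin and laminin genes in replicate 1 (circles) and replicate 2 (squares), ordered by mean within a class, with the detection threshold of 1 TPM as a dashed line. Itgb1 lies furthest right at 280 and 234 TPM, and the open symbols for Itgad stand at the left edge because both its values are 0.

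Among beta chains, Itgb1, the partner of 12 alpha chains and the main receptor chain for matrix, had 280 TPM in replicate 1 and 234 in replicate 2 (257 ± 33.0, SD, n = 2). The gene lies at chr8:128685654-128733200 on the plus strand of GRCm38. It was the most abundant gene of the group and ranked 471 among protein-coding genes. It supplied 83.6% of the summed TPM of beta chains in replicate 1 and 83.3% in replicate 2. The share moved little between the libraries although the level itself was higher in replicate 1.

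The next beta chains pair with Itgav or Itga6. Itgb5, a vitronectin receptor chain, had 22.4 TPM in replicate 1 and 17.8 in replicate 2. Itgb6, an epithelial chain whose receptor binds latent transforming growth factor beta, had 10.5 and 8.11 TPM. Itgb4, the chain of hemidesmosomes with a long cytoplasmic tail, had 8.13 and 7.54 TPM. The ranges of Itgb6 and Itgb4 overlapped, so their order is not settled by these libraries. Itgb8, which also binds latent transforming growth factor beta with Itgav, had 5.46 TPM in replicate 1 and 4.85 in replicate 2. The remaining beta chains lay at 2 to 4 TPM and are known from blood cells and vessels. Itgb7, of lymphocyte homing receptors, had 3.25 and 4.19 TPM and was the only beta chain higher in replicate 2 by TPM. Itgb3, the platelet and vascular chain, had 2.73 and 2.26 TPM, and Itgb2, the leukocyte chain, had 2.38 and 2.00 TPM, with ranges that overlapped.

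Alpha chains that recognise the RGD motif of fibronectin and related ligands formed the largest summed level among alpha chains, at 157 TPM in replicate 1 and 142 in replicate 2. Itgav, which pairs with 5 beta chains, had 80.1 TPM in replicate 1 and 70.6 in replicate 2 (75.3 ± 6.71, SD, n = 2). It lies at chr2:83724397-83806916 and overlaps Gm13684 on the other strand, a transcript with 30.2 and 59.2 counts that could share reads with it. Itga5, the fibronectin receptor chain, had 52.9 and 47.5 TPM. Itga8, a mesenchymal and smooth muscle chain that binds nephronectin, had 18.7 and 19.4 TPM. Itga2b, the platelet fibrinogen receptor chain, had 5.74 and 4.72 TPM from 99 and 80 counts. By deposited TPM, most of the Itga2b level was assigned to short transcripts that do not encode the receptor. Its complete coding transcript, as defined below, had 0.58 TPM in replicate 1 and 0.48 in replicate 2. That transcript still held the most counts of any Itga2b transcript, at 32.7 and 28.5. Of 8 other megakaryocyte and platelet markers 3 were detected, against 61.8% of all protein-coding genes. Pf4 led at 46.5 ± 3.22 TPM (SD, n = 2), while Gp9, Gp6, Gp1ba and Treml1 stayed under 1 TPM.

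Laminin-binding alpha chains summed to 83.6 TPM in replicate 1 and 72.1 in replicate 2. Itga6, the chain that pairs with Itgb1 and Itgb4, had 64.5 and 54.6 TPM (59.5 ± 7.06, SD, n = 2), at chr2:71745616-71858416. Itga3, a basal epithelial chain, had 17.7 and 15.8 TPM. Itga7, a muscle chain, had 1.41 and 1.68 TPM. It stood far below the other 2 although the smooth muscle marker Acta2 averaged 1900 ± 42.4 TPM (SD, n = 2). Skeletal muscle markers summed to 8.68 TPM in replicate 1 and 8.79 in replicate 2.

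Collagen-binding alpha chains summed to 28.5 TPM in replicate 1 and 27.0 in replicate 2, and Itga1 was the highest of them. Itga1, a chain of smooth muscle and mesenchyme, had 20.2 and 19.5 TPM. Itga2, an epithelial and platelet collagen receptor chain, had 6.03 and 5.74 TPM. Itga11, a fibroblast chain, had 1.52 and 1.01 TPM, and Itga10, a cartilage chain, had 0.67 and 0.74 TPM. The Itga1 and Itga2 genes are direct neighbours on chromosome 13, separated by 20995 bases with no protein-coding gene between them. Itga1 was the higher of the pair in each library. Itga9, which binds tenascin and other ligands, had 11.9 TPM in replicate 1 and 10.1 in replicate 2. Itga4, a receptor chain for Vcam1 and fibronectin, had 4.29 and 4.12 TPM.

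The 5 leukocyte alpha chains together had 1.62 TPM in replicate 1 and 1.65 in replicate 2. Itgal and Itgam, of the lymphocyte and myeloid receptors, had 0.72 and 0.74 TPM in replicate 1, and 0.67 and 0.58 TPM in replicate 2. Itgae, a chain of lymphocytes within epithelia, had 6 and 25 counts (0.10 and 0.37 TPM). Itgax, a dendritic cell chain, had 4 and 2 counts. Itgad had 0 counts in both, which allows up to 3 counts in each library. Itgam, Itgax and Itgad follow each other on chromosome 7 with no protein-coding gene between them. Macrophage markers were all detected, against 61.8% of all protein-coding genes, and summed to 213.07 TPM in replicate 1 and 201 in replicate 2. None of 6 lymphocyte markers was detected, and their sum was 0.43 and 0.72 TPM.

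Among laminin alpha chains, 2 stood above the rest by gene TPM. Lama4, the short alpha chain of vessels and mesenchyme, had 52.3 TPM in replicate 1 and 53.6 in replicate 2 (53.0 ± 0.88, SD, n = 2), at chr10:38965515-39110188. Lama5, the main alpha chain of mature epithelial and vascular basement membranes, had 49.7 and 53.1 TPM (51.4 ± 2.44, SD, n = 2), at chr2:180176373-180225859. Their ranges overlapped, at 41.4% and 41.3% of the laminin alpha TPM for Lama4 and 39.3% and 41.0% for Lama5. Lama2, the alpha chain around muscle and Schwann cells, had 15.0 and 14.6 TPM. Lama3, the alpha chain of the laminin under stratified epithelia, had 5.28 and 4.11 TPM. Lama1, the alpha chain of the first embryonic basement membranes, had 4.04 and 4.25 TPM, a range that overlapped that of Lama3.

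The beta chains were led by 1 gene. Lamb1, the widespread beta chain at chr12:31265234-31329644, had 83.3 TPM in replicate 1 and 80.6 in replicate 2, which was 66.4% and 70.3% of the laminin beta TPM. Lamb2, which replaces it in many mature membranes, had 32.5 and 26.8 TPM. Lamb3, the beta partner of Lama3, had 9.73 and 7.16 TPM. Lamc1, the gamma chain of most laminins at chr1:153218922-153332786, had 85.4 TPM in replicate 1 and 76.7 in replicate 2. Lamc3, a gamma chain of fewer tissues, had 0.37 and 0.27 TPM.

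Gene TPM sums every annotated transcript of a gene. For several of these genes much of that sum was assigned to short fragments, whose counts are divided by a short length. A transcript was called complete when it was annotated as protein coding, with both ends of the coding sequence found, and its coding sequence reached 50% of the longest of that gene. This reading was chosen after the data had been seen. Among the 25 detected genes with several transcripts, complete transcripts held a median 74.2% of the gene TPM, against 83.5% over 9683 protein-coding genes. The share was under 50% in 8 of the 25, against 19.8% of those protein-coding genes. The 8 were Itga2b, Itga4, Itga6, Itgav, Itgb8, Lama2, Lama5 and Lamc1.

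Itgav shows how far the 2 readings can differ. Its transcript with the most TPM, Itgav-205, is 463 nt long and covers the 3′ end of the gene, and it held 64.6% of the Itgav TPM in replicate 1 and 67.9% in replicate 2. The complete Itgav transcripts had 22.0 TPM in replicate 1 and 17.0 in replicate 2. For Lama5 a fragment of 478 nt, Lama5-204, was the top transcript with 17.8 and 17.1 TPM, while the complete Lama5-201 of 11388 nt had 14.2 and 12.0 TPM. For Lamc1 the fragment Lamc1-204 of 1447 nt had 40.9 and 41.0 TPM, beside 43.7 and 35.3 TPM of the complete Lamc1-201. By counts the complete transcripts led in all 3 genes. Itgav-205 had 318 and 312 counts, beside 1411 and 1030 for Itgav-202 and 1112 and 1042 for Itgav-201, both complete. Lama5-204 had 113 and 116 counts beside 2697 and 2423 for Lama5-201, and Lamc1-204 had 930 and 990 beside 5542 and 4752 for Lamc1-201. A read from the shared end of a gene can belong to either kind of transcript, so the split rests on the deposited estimates.

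By complete transcripts the order of levels changed. Itga5 and Itga1 each have 1 annotated transcript, a complete one, so this reading cannot lower them. Itgav has 9 and Itga6 has 8, so it can lower these. The new order of alpha chains therefore rests in part on the annotation. Itga5 then led the alpha chains with 52.9 TPM in replicate 1 and 47.5 in replicate 2, followed by Itga6 at 25.9 and 18.0 TPM. Itga6 then no longer stood clear of Itga1, at 20.2 and 19.5 TPM, or of Itgav, at 22.0 and 17.0 TPM. Lama4 came out above Lama5, with 34.1 and 34.5 TPM for Lama4 beside 14.2 and 12.0 TPM for Lama5. Lamb1 at 64.6 and 58.0 TPM then exceeded Lamc1 at 43.7 and 35.3 TPM. Itgb1 kept 278 and 232 TPM, because its single complete transcript held 99.3% of the gene TPM in replicate 1. Itga2b was the only gene called detected by gene TPM that fell under the threshold, which leaves 29 of 37.

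**Figure D2:**
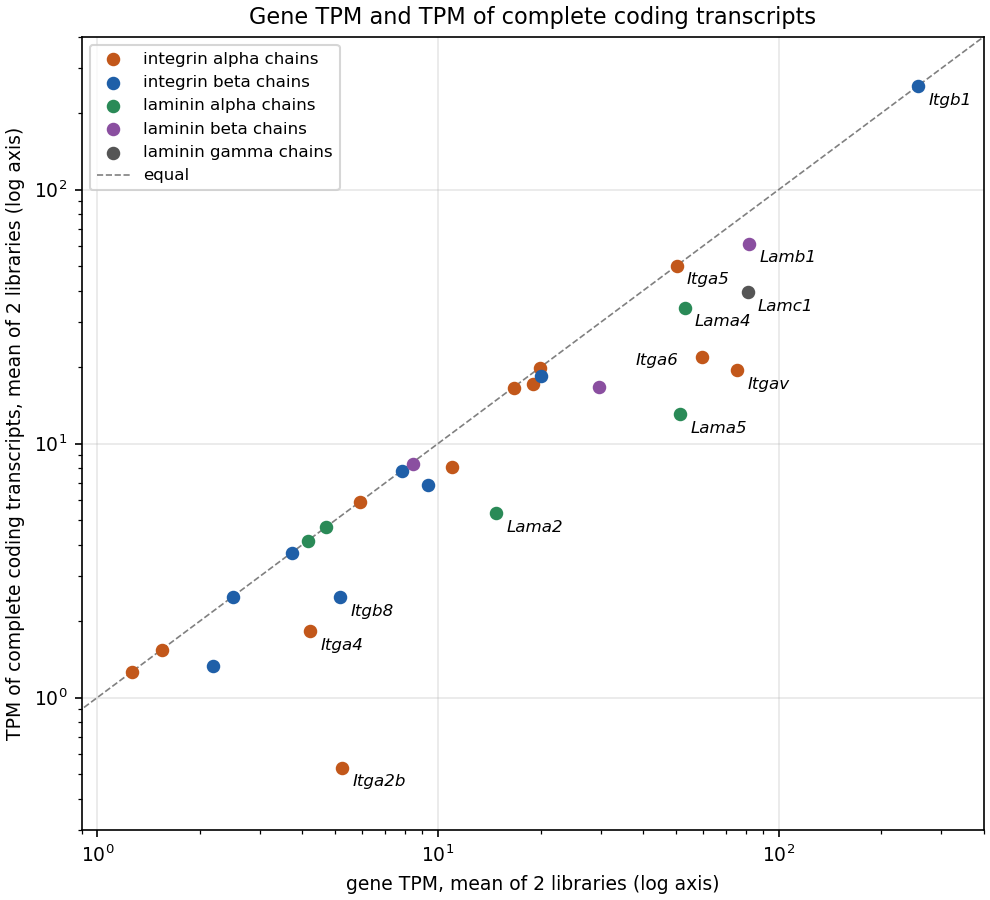
Mean gene TPM of detected genes (x axis, log) against the mean TPM of its complete coding transcripts (y axis, log), coloured by class, with the line of equality dashed. Genes with a share under 50% and those above 45 TPM are named, and Itgav, Lama5 and Itga2b lie well below the line while Itgb1 and Itga5 lie on it. Itga5 has 1 annotated transcript, a complete one, so it can only lie on the line.

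**Figure D3:**
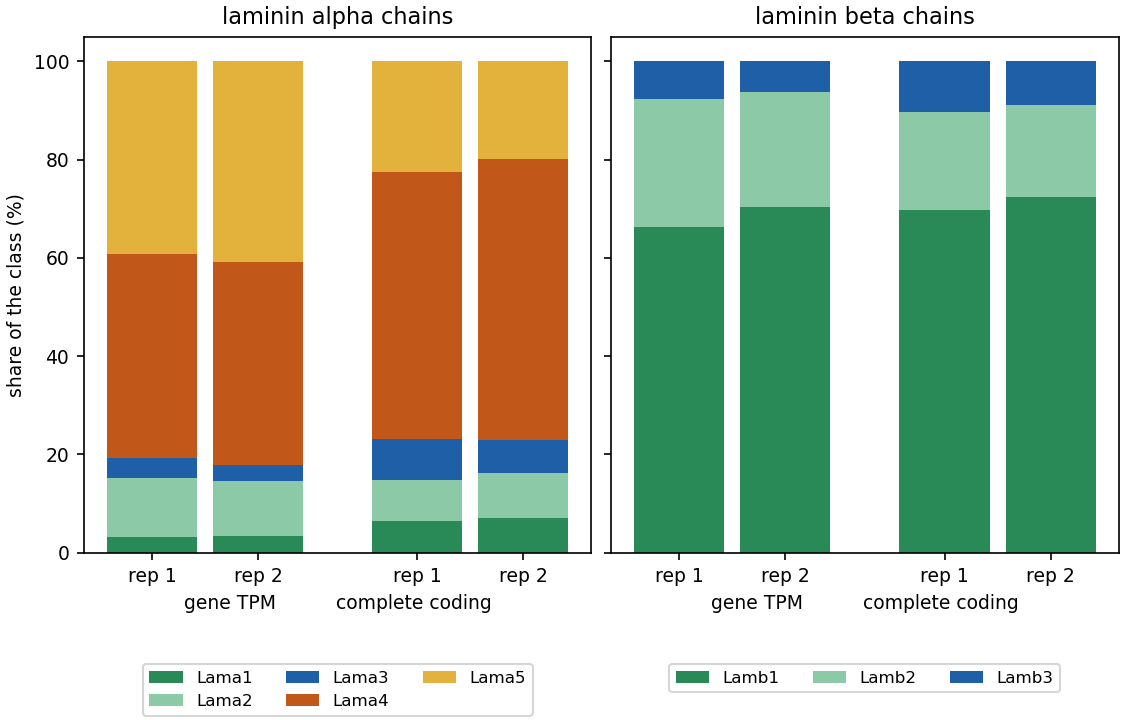
Share (%) of each laminin chain in the summed TPM of the alpha or beta class, by gene TPM (left pair of bars) and by complete coding transcripts (right pair), for replicates 1 and 2. The Lama4 share is 41.4% and 41.3% by gene TPM and 54.3% and 57.2% by complete transcripts, while Lamb1 leads its class on both readings.

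Some of these genes make receptor chains with different cytoplasmic tails, by using or skipping an exon near the 3′ end. The sequences that differ between the tails of Itga6, Itga3 and Itgb1 are shown because the tail decides which proteins inside the cell the chain can meet. Lower case marks the last 20 coding bases that both forms share, and capitals mark the coding bases of the form's own exon, 5′ to 3′ and without the stop codon, from GRCm38 with GENCODE M21 exons.
Itga6 A tail, chr2:71853534-71853638, plus strand: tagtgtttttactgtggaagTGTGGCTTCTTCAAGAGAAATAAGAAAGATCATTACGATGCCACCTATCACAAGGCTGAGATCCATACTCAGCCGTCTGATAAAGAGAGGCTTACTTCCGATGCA
Itga6 B tail, chr2:71855854-71856012, plus strand: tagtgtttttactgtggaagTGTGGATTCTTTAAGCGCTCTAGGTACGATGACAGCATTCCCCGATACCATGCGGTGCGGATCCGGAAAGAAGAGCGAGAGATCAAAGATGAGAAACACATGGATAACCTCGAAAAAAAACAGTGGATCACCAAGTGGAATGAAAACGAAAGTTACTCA
Itga3 A tail, chr11:95046483-95046590, minus strand: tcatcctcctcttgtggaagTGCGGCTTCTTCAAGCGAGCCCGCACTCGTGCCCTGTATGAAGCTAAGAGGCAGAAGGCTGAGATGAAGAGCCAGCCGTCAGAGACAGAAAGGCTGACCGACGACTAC
Itga3 B tail, chr11:95045611-95045763, minus strand: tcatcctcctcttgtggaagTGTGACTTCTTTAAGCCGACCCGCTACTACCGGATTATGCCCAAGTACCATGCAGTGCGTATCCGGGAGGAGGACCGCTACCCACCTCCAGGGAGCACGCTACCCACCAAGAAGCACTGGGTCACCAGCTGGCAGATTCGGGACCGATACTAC
Itgb1 D tail, chr8:128726983-128727054, plus strand: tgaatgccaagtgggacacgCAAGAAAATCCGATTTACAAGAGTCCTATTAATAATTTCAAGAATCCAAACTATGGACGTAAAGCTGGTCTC
Itgb1 A tail, chr8:128732023-128732085, plus strand: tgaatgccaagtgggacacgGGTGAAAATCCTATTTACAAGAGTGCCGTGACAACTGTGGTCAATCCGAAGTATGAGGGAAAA
The coordinates are those of the capitals. The A tails of Itga6 and Itga3 end within the alternative exon, of 130 and 142 nt, so that using it replaces the longer B tail of 159 and 153 coding bases. In Itgb1 the D exon of 81 nt supplies 72 coding bases, and the A tail has 63.

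For Itga6, transcripts with the A exon summed to 27.9 TPM in replicate 1 and 20.9 in replicate 2, and transcripts that skip it summed to 25.5 and 21.7 TPM. The complete A transcript Itga6-201 had 25.9 and 18.0 TPM, while the complete B transcript Itga6-202 was at 0 TPM in both. All of the skipping level came from Itga6-203, an annotated fragment of 2721 nt without a coding sequence. Of its bases 1677 lie in no other transcript of the gene, most of them in a longer 3′ end, so its level does not measure skipping of the A exon alone. The deposited posterior means gave Itga6-202 a count of 96.7 in replicate 1 and 94.8 in replicate 2, with SDs of 68.6 and 73.0. These data therefore hold the A tail in both embryos and leave the level of the B tail unresolved.

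**Figure D4:**
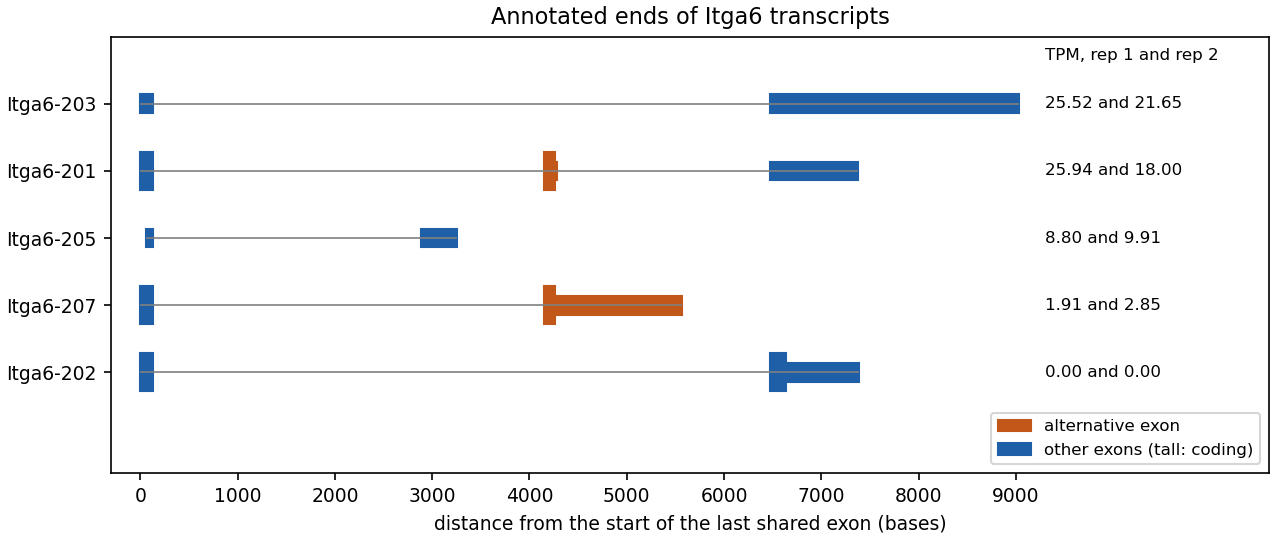
Exons of the Itga6 transcripts that share the last common exon, by distance in bases from the start of that exon, with the alternative A exon in the second colour and coding parts drawn tall. TPM in replicate 1 and replicate 2 stands at the right, 25.94 and 18.00 for Itga6-201 with the A exon and 25.52 and 21.65 for the fragment Itga6-203 that skips it.

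For Itga3, transcripts with the A exon had 14.6 TPM in replicate 1 and 15.7 in replicate 2, and the skipping transcript Itga3-203 had 2.85 TPM and 0 TPM. The A share of the level that spans the exon was 83.7% in replicate 1 and 100% in replicate 2 by deposited TPM, and 83.1% and 93.4% by posterior means. The posterior count of Itga3-203 was 227 with an SD of 97.1 in replicate 1 and 84.6 with an SD of 83.8 in replicate 2. The difference between the libraries was thus about the size of the estimates' own error. For Itgb1, the transcript with the D exon had 0 TPM in replicate 1 and 0.33 in replicate 2, beside 280 and 232 TPM of transcripts that skip it. The D tail is known from skeletal and heart muscle.

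Of the other genes with known protein forms, Lama3 showed 1 dominant form, while the split of Itgb4 was less certain. Lama3 has a short and a long form, of which the short one is made from a start inside the gene. The short transcript Lama3-202 of 5551 nt had 5.05 TPM in replicate 1 and 3.81 in replicate 2, or 95.6% and 92.7% of the gene. The long Lama3-201 of 10548 nt had 0.23 and 0.30 TPM. The short form is the one known from the laminin under stratified epithelia. For Itgb4, Itgb4-202 with a coding sequence of 5259 bases held 68.2% and 72.3%, followed by Itgb4-201 with 16.8% and 22.9%. Itgb4-204 had 1.12 TPM in replicate 1 and 0 in replicate 2, and Itgb4-205 had 0 and 0.36 TPM. Itgb4-203 and Itgb4-210 were at 0 in both by deposited TPM. Posterior means gave Itgb4-202 a share of 58.8% and 60.5% and Itgb4-201 a share of 10.1% and 12.3%. The posterior count of Itgb4-210 was 52.9 with an SD of 46.4 in replicate 1 and 41.1 with an SD of 35.95 in replicate 2. Itga7 has 1 transcript in the tables, so its forms cannot be compared here. Over the 25 detected genes with several transcripts, 22 showed 1 and the same top transcript in either library.

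Pairs of an alpha and a beta chain known to join in 1 receptor were set side by side, 24 in all. Both chains were detected in 18 of them, as were those of 11 of the 12 pairs with Itgb1, the exception being Itga10. In all 12 Itgb1 pairs the alpha chain had the lower level in both libraries. The alpha to Itgb1 ratio of TPM ran from 0.0024 for Itga10 to 0.286 for Itgav in replicate 1, and from 0.0032 to 0.302 in replicate 2. Summed over the 12 partners, alpha TPM was 279.9 in replicate 1 and 250.8 in replicate 2, beside 280 and 234 TPM of Itgb1. The near match did not extend to complete transcripts, where the partners summed to 175 and 154 TPM beside 278 and 232 TPM of Itgb1. The sums also count Itgav, Itga6 and Itga4, which share other beta chains.

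Outside Itgb1, the beta chain was the lower one for the pairs of Itgav and Itga6. Itgav over its partners gave ratios in replicates 1 and 2 of 3.57 and 3.96 for Itgb5, 7.60 and 8.70 for Itgb6, 14.7 and 14.6 for Itgb8, and 29.3 and 31.2 for Itgb3. These 4 beta chains summed to 41.2 TPM in replicate 1 and 33.0 in replicate 2. By complete transcripts Itgav and Itgb5 stood near parity, with ratios of 1.12 and 0.975, while Itgav remained above Itgb6, Itgb8 and Itgb3. Itga6 over Itgb4, the hemidesmosome receptor, gave 7.94 and 7.23 by gene TPM and 3.23 and 2.39 by complete transcripts. Itga4 over Itgb7 gave 1.32 and 0.983 by gene TPM, where neither chain was lower in both libraries, and 0.56 and 0.437 by complete transcripts, where Itga4 was the lower chain in both. Itga2b over Itgb3 gave 2.10 and 2.09 by gene TPM and 0.212 in each library by complete transcripts, so the lower chain of the platelet receptor depends on the reading. With Itgb2, the leukocyte alpha chains gave 0.303 and 0.335 for Itgal, 0.311 and 0.290 for Itgam, 0.0252 and 0.0150 for Itgax, and 0 for Itgad. Itgae over Itgb7 gave 0.0308 and 0.0883.

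Known laminin trimers with Lamc1 or Lamc3 as the gamma chain were set side by side, 13 in all. All chains were detected in 10 of them, and the 3 others, with Lama2 and Lamb1, Lama4 and Lamb2 or Lama5 and Lamb2, include Lamc3, which was under the threshold. The alpha chain had the lowest mean level in 8 of the 13. Lama1, Lama2 and Lama3 were lowest in their trimers with Lamc1 and either Lamb1 or Lamb2. Lama4 and Lama5 were lowest beside Lamb1 and Lamc1. Beside Lamb2 and Lamc1 the lowest chain of both was Lamb2, at 32.5 TPM in replicate 1 and 26.8 in replicate 2. By complete transcripts Lama5 was lowest beside Lamb2 and Lamc1, and the other 12 trimers kept the same lowest chain.

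The trimers of Lamb1 and Lamc1 thus differed widely in their lowest chain. By gene TPM it stood at 49.7 and 53.1 TPM with Lama5 and at 52.3 and 53.6 TPM with Lama4, beside 4.04 and 4.25 TPM with Lama1. By complete transcripts it stood at 14.2 and 12.0 TPM with Lama5 and at 34.1 and 34.5 TPM with Lama4. Lama1, with 1 annotated transcript, kept its values. Stratified epithelium, where Lama3 and Lamb3 are best known, was marked by Krt15 at 171 ± 17.7 TPM and Trp63 at 36.1 ± 3.12 TPM (SD, n = 2). Krt14 was the lowest of its 6 markers, at 3.86 TPM in replicate 1 and 3.57 in replicate 2, and Krt13 had 107 and 56.2 TPM.

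Between the libraries, ratios of expected counts were taken for the 29 integrin and laminin genes that averaged at least 100 counts. They are given as the log2 of replicate 1 over replicate 2. None was over 2-fold apart, against 0.263% of protein-coding genes and 0.298% of all genes. Ratios ran from -0.43 for Itgb7 to 0.53 for Itga11. The median size of the ratio, regardless of sign, was 0.14, against 0.093 for protein-coding genes. In 20 of the 29 the ratio was above 0, against 52.8% of protein-coding genes. With spike-in counts in place of the gene counts as the scale, every ratio was higher by 0.27 and 27 of 29 were above 0, against 95.7% of protein-coding genes. A 95% counting interval (Clopper-Pearson) left out 0 in 15 of the 29, 12 above and 3 below, against 34.6% of protein-coding genes. The interval covers counting error only and holds no spread between embryos.

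Some but not all chains known from epithelia were higher in replicate 1 beyond counting error. Lamb3, at 637 and 505 counts, had a log2 ratio of 0.36 with an interval of 0.19 to 0.53. Itga6 had 0.29 (0.21 to 0.36), Lama3 0.26 (0.072 to 0.45) and Itgb6 0.25 (0.090 to 0.41), while Itga3 had 0.086 (-0.024 to 0.20), Itgb4 0.037 (-0.11 to 0.18) and Itga2 0.0049 (-0.19 to 0.20), with intervals that hold 0. All 9 markers of stomach epithelium had ratios above 0, with a median of 0.13, against 52.8% of protein-coding genes above 0. All 5 markers of stratified epithelium with enough counts did too, from 0.099 to 0.89 with a median of 0.16, led by Krt13. The sign depends on the scale, since 95.7% of protein-coding genes were above 0 by spike-in counts. The part of these cells in the ratios of Lamb3, Itga6, Lama3 and Itgb6 was not tested.

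Widely expressed chains were also higher in replicate 1. Itgav had a log2 ratio of 0.27, Lamb2 of 0.25, Itgb1 of 0.20, Lamc1 of 0.20, Lama5 of 0.12, Itga5 of 0.091 and Lamb1 of 0.073, each with an interval above 0. Lama5 had the other sign by deposited TPM, at -0.097, where the tables give it an effective length of 3536 bases in replicate 1 and 2905 in replicate 2. Mesothelium markers, 3 of 3 above 0 against 52.8% of protein-coding genes, had a median of 0.36, and their part was not tested.

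Lower in replicate 1 were Lama2 at -0.21 (-0.33 to -0.089), Lama4 at -0.11 (-0.17 to -0.043) and Itgb7 at -0.43 (-0.75 to -0.11). Scaled on spike-in counts, Lama2 and Lama4 turned to 0.060 and 0.16, and Itgb7 stayed at -0.16. As ratios of deposited TPM, Lama2 turned to 0.038, Lama4 had -0.034 and Itgb7 had -0.37. The mesenchymal markers Tcf21 and Foxf1 had -0.17 and -0.16. Yet the list of 6 mesenchymal markers with enough counts had a median of 0.019 with 3 above 0, against 52.8% of protein-coding genes. Itga11, at 125 and 88 counts, had the widest ratio above 0, 0.53 with an interval of 0.12 to 0.94. Exocrine pancreas markers had a median of 7.04 in the same comparison, and the part of pancreas tissue in these ratios was not tested.

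**Figure D5:**
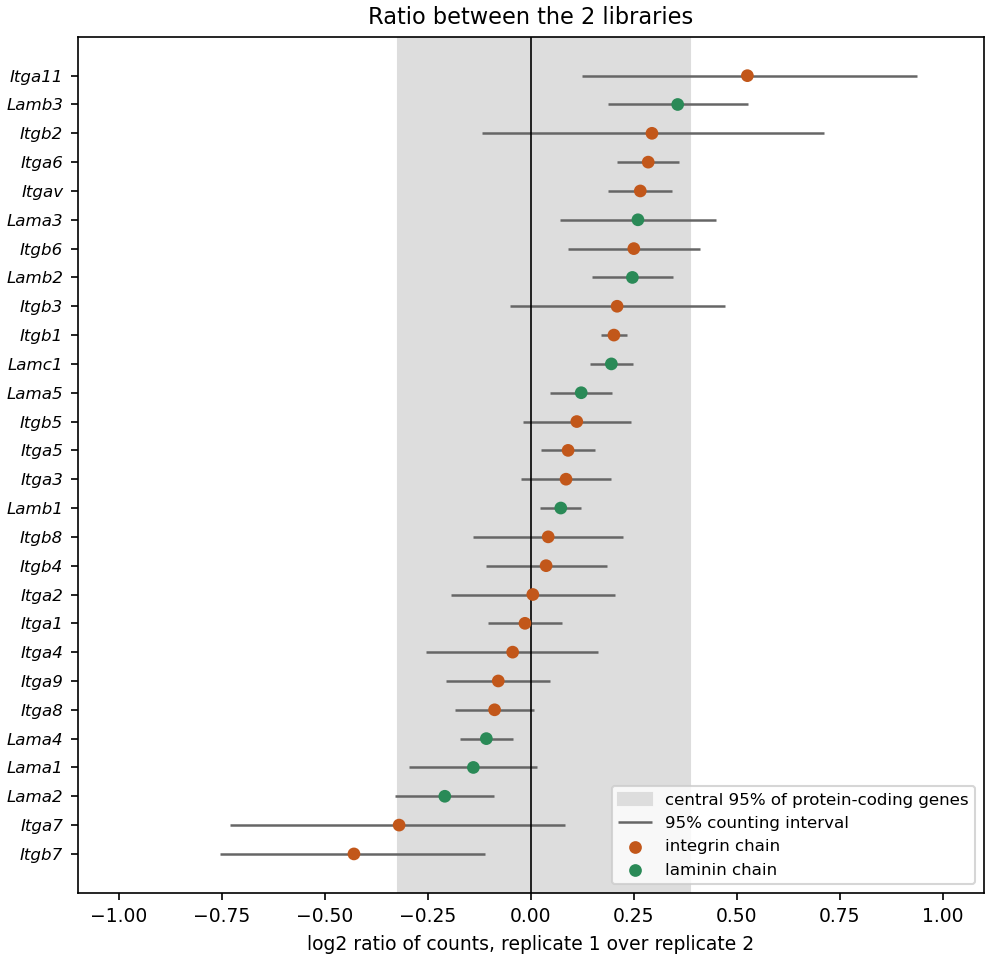
Log2 ratio of expected counts, replicate 1 over replicate 2, for integrin and laminin genes that averaged at least 100 counts, with 95% counting intervals as lines and the central 95% of protein-coding genes (-0.32 to 0.39) shaded. Points run from -0.43 for Itgb7 to 0.53 for Itga11, and these are the only points outside the shading.

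Genes that work with integrins and laminins were taken from lists. Their counts of detected genes stand against 61.8% of all protein-coding genes by the same rule. Of 20 basement membrane partners 18 were detected, all but Col4a3 and Col4a4, the collagen IV chains of kidney. Sparc, a collagen-binding matrix protein, led with 1236 ± 68.4 TPM, followed by Col4a1, the widespread collagen IV chain, with 136 ± 16.0 TPM and Pxdn, the peroxidase that crosslinks collagen IV, with 78.3 ± 2.80 TPM (SD, n = 2). Of 10 other laminin receptors 9 were detected, all but Sgca, a sarcoglycan of striated muscle. Bcam, a receptor for Lama5, had 120 ± 6.64 TPM, and the syndecans Sdc1 and Sdc4 had 89.5 ± 11.2 and 84.1 ± 10.5 TPM. All 7 genes of the list named matrix proteases and trimer assembly were detected. It was led by the chaperones Hsp90b1 at 356 ± 48.8 TPM and Canx at 176 ± 18.3 TPM and by the protease Mmp2 at 126 ± 9.62 TPM. Of 6 matched genes of the list of netrins and laminin-domain genes 4 were detected, with Usp9x, a deubiquitinase that is not a matrix protein, at 47.5 ± 3.36, Megf9 at 10.6 ± 0.247 and Ntn1 at 7.15 ± 1.22 TPM.

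Inside the cell, all 23 activators and adaptors were detected. The highest were Ilk, the pseudokinase that links beta chains to actin, with 307 ± 9.67 TPM, the kindlin Fermt2 with 136 ± 7.40 TPM, and Rsu1, a partner of the same complex, with 133 ± 9.24 TPM (SD, n = 2). All 6 hemidesmosome genes were detected, a list that includes the integrin chains Itga6 and Itgb4 described above. It was led by the tetraspanin Cd151 at 61.3 ± 1.08 TPM, Itga6, and the cytolinker Plec at 38.0 ± 0.170 TPM. The lowest were Col17a1, at 9.69 TPM in replicate 1 and 7.44 in replicate 2, and Itgb4, at 8.13 and 7.54 TPM. Of 19 matched genes of the list of ligands other than laminins 14 were detected, against 61.8% of all protein-coding genes. The highest were Lamp1, a lysosomal membrane protein that is not an established integrin ligand, at 210.9 ± 18.3 TPM, fibronectin Fn1 at 134 ± 4.30 TPM, and E-cadherin Cdh1, a ligand of the Itgae receptor, at 107 ± 14.9 TPM. None of these lists held a gene over 2-fold apart at a mean of at least 100 counts, except the ligand Spp1. Spp1, osteopontin, had 59.5 TPM in replicate 1 against 6.01 in replicate 2, for a log2 ratio of 3.24. It stood beside the pancreas markers in that direction, and their part was not tested.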

How the data were processed

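Total RNA libraries of 2 E14.5 mouse stomachs were analysed from deposited gene and transcript tables. Per the labels, RNA came from a mirVana extraction, RNAs over 200 nt were kept and spike-ins were added. Per the deposited notes and labels, reads were assigned to mm10 with GENCODE M4 genes. Aligner, counter and use of strand are not stated, so a gene and its antisense partner cannot be told apart. The authors' expected counts are estimated read counts, not normalized. The authors' TPM values scale to a fixed total including spike-ins, which took 12.1% of TPM in replicate 1 and 14.2% in replicate 2. The deposited percent values express each transcript as a part of its gene's level. A second deposited TPM, the posterior mean, was an alternative.

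Identifiers were matched to GENCODE M21, where 42462 of 43346 had a symbol. Of 181 transcripts of the 37 genes 179 were matched, 169 at equal length. The 26248 entries with a number for a name stayed out of library sizes; they took 15.5 counts in replicate 1 and 25 in replicate 2. Expected counts were whole within 0.005 in both libraries for 30 of the 37 genes, and 12 of the 37 overlap exons of another gene.

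Ratios used TMM sizes from edgeR 4.0.16 in R 4.3.3, with 0.5 added to each count; DESeq2 1.42.0 size factors were an alternative. The steps were tested on simulated data. With 1 library on each side no p-value exists. Nothing says how the 2 libraries differ beyond pup and collection day, and their spread may in part be technical. Reads without molecular identifiers are not independent molecules, so intervals and the floor of 3 counts cover counting error only. The genes, pairs, trimers and lists were chosen with earlier results of these data known. The genes are named, with the top 3 of each list and any list gene over 2-fold apart; markers and other genes named were chosen after their values were seen. Counts cover all genes of the rule and lists, but some of these genes are not reported here.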

Additional observations from a re-analysis of the deposited data

How the results depend on the processing

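The count of 30 detected genes was 33, 28 and 20 at thresholds of 0.5, 2 and 5 TPM, 31 by posterior mean TPM, 30 after rescaling without spike-ins and mitochondrial genes, and 30 without either replicate. The count over 2-fold apart stayed at 0 with DESeq2 size factors, spike-in counts, deposited or posterior mean TPM, 1 added to each count and a threshold of 1.5-fold. It was 1 at a mean of at least 10 counts and 1 with no filter; the gene was Itgae, at 6 and 25 counts.

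Alpha chains held 47.0% of the summed integrin TPM, 46.2% to 47.9% with a replicate left out, and 35.8% by complete coding transcripts. Itgb1 held 83.5% of beta TPM, 83.3% to 83.6% with a replicate left out, 82.3% by posterior mean TPM, 83.0% by expected counts not divided by length and 85.5% by complete coding transcripts. The mean TPM of 19 of the 37 genes moved by more than the SD between the libraries when complete coding transcripts were used. Rescaling without spike-ins and mitochondrial genes multiplied all genes of a library by the same factor. By the same measure 31 of the 37 moved, which reflects that common shift and a small SD. Of the 29 ratios, 2 changed sign with DESeq2 size factors, 7 with spike-in counts and 5 as ratios of deposited TPM. No paired analysis was possible because the 2 libraries form 1 group and there are no groups to pair.

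Depth limits Itgae, Itgax, Itgad, Itgal, Itgam, Itga10, Itga2b and Lamc3, each with a mean under the 100 counts asked of a ratio. The 2 libraries give no estimate of the spread between embryos apart from that between preparations.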
